A study of Rattus norvegicus with 2 samples.

Results

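The genes described here encode inhibitors of 2 families, most of which cells make in response to ERK signalling and which then damp it. They are the dual-specificity phosphatases Dusp1, Dusp4, Dusp5, Dusp6 and Dusp10 and the Sprouty proteins Spry1, Spry2 and Spry4 with their relative Spred1. Dusp10 differs in that it acts on the related kinases p38 and JNK rather than ERK. The 9 genes were taken by name, with every probe set that the array's annotation pairs with 1 of these symbols and no other. That gave 11 probe sets for 8 of the 9 genes, among 14218 genes with such a probe set. Spred1 had no probe set of its own in that annotation and was not analysed here.

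The signals come from 2 cultures of rat astrocytes (glia that support neurons), grown from Sprague-Dawley hippocampus at embryonic day 18 and of normal genotype. The control culture carried a vector for red fluorescent protein alone (IRES2-RFP). The 5ppase culture carried 5ppase with a red fluorescent protein, given as 5ppase-IRES2-RFP in the sample's description and as 55ppase-IRES-RFP in its transfection label, and taken here as 1 construct. The series design describes calcium signalling as active in the control and as missing in 5ppase. RNA of each culture was read on 1 single-colour Affymetrix array, so no value has a replicate, no test was run and every difference below describes these 2 arrays only. The name 5ppase usually stands for an inositol phosphate 5-phosphatase, which removes the messenger that opens calcium stores. The labels do not state which promoter drove the vector, how many cells expressed it or whether cultures were pooled.

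ERK is the last kinase of a relay that runs from growth factor receptors through Ras, Raf and MEK. Active ERK enters the nucleus and switches on early genes, and some of these encode proteins that act back on the relay. Dual-specificity phosphatases strip phosphate from the activation loop of ERK and its relatives p38 and JNK, whereas Sprouty and Spred proteins act further up, between the receptor and Raf. In astrocytes, growth factors and agonists of G protein-coupled receptors activate the relay, and calcium is one of the signals that can feed into it.

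The stretches of DNA just before the start sites are shown for 4 members: Dusp1 and Dusp6, which have repeated probe sets, Spry4, which had the ratio furthest from 1 among the members compared, and Dusp5, which has 2 neighbouring CArG boxes, the core of serum response elements. Each is the 250 bases before the start, 5′ to 3′, from RefSeq on the GRCr8 build, and capitals mark motif matches on either strand.
Dusp1, chr10:17184603-17184852, plus strand: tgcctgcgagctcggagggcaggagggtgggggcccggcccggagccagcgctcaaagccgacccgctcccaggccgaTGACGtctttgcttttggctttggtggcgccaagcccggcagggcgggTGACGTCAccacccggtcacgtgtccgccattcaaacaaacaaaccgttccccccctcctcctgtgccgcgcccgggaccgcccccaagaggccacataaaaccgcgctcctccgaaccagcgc
Dusp5, chr1:262543524-262543773, plus strand: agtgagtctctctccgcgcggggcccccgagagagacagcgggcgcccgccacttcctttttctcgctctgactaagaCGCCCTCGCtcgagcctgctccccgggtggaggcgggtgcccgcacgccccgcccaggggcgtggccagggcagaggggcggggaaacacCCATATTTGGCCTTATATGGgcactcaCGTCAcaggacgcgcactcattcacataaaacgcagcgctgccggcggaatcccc
Dusp6, chr7:35979354-35979603, plus strand: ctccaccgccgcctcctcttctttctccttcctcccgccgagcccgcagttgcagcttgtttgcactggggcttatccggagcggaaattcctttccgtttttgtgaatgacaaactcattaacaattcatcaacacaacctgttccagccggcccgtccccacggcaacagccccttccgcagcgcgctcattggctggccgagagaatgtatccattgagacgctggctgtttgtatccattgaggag
Spry4, chr18:30702547-30702796, minus strand: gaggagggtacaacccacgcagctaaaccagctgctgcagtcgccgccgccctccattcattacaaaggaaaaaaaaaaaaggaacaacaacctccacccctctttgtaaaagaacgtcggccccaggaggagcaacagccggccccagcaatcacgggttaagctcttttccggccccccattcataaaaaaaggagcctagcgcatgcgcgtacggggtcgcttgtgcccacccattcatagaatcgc

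The motifs searched were the cAMP response element CRE (TGACGTCA), a target of the calcium- and cAMP-responsive factor CREB, its core (TGACG, which lies inside the full element), the AP-1 site TGACTCA, an ETS site (CCGGAAG), an EGR site (GCGNGGGCG) and the CArG box bound by serum response factor. The Dusp1 sequence holds a full CRE that ends 117 bases before the start and a separate core that ends 168 bases before it. A full CRE occurs in 1.59% and a core in 18.2% of all 33469 promoters of that length. The Dusp5 sequence holds 2 CArG boxes, side by side, that end 73 and 63 bases before the start, as well as 1 CRE core and 1 EGR match. At least 1 CArG box occurs in 1.5% of promoters and 2 or more in 0.0209%. The Dusp6 and Spry4 sequences hold none of these motifs, and neither do those of Dusp10, Spry1 and Spred1. Spry2 has 2 listed start sites, with an EGR match at both and a CRE core at 1. No member's sequence has an AP-1 or ETS match, found in 4.05% and 7.27% of promoters, and EGR matches occur in 4.29%. Dusp4 is named only. A match describes letters in this window and is no measured binding site.

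Of the 8 Dusp and Sprouty genes with values 5 could be compared between the control and 5ppase arrays, and 4 of these lay within 1.5-fold. A difference this small was common: of the 8261 genes that passed the filter given below, 89.3% also stayed under 1.5-fold. The count of 4 therefore does not set these genes apart from the rest. Signals are linear intensities computed with MAS5, the Affymetrix summary of a probe set, and both arrays have a trimmed mean of 500.2. A gene was compared where its brightest probe set lay above a floor of 62.0 (the 40th percentile of all signals) on both arrays and reached 208 (the 60th percentile) on at least 1. Dusp1, Dusp6, Spry1, Spry2 and Spry4 met this, and each of these 5 exceeded 208 on both arrays. Of the 5, Spry4 alone was at least 1.5-fold apart, 1.54-fold higher in 5ppase, and at their brightest probe sets Dusp1 was 1.07-fold lower and Dusp6 1.05-fold higher.

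**Figure D1:**
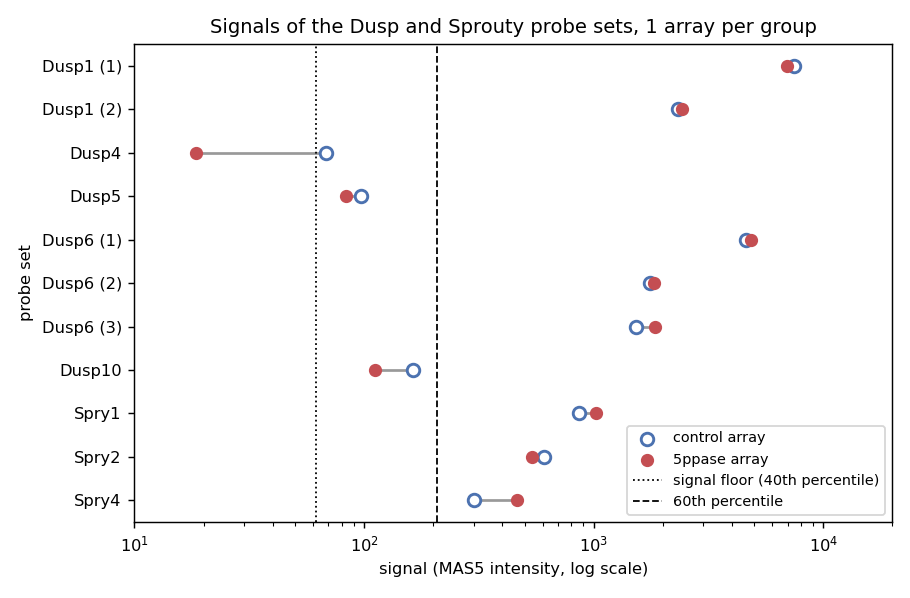
Signal of each of the 11 Dusp and Sprouty probe sets (log scale) on the control array (open circles) and the 5ppase array (filled circles), with the floor of 62.0 dotted and the 60th percentile of 208 dashed. Numbers in brackets order the probe sets of a gene by brightness; Dusp4, Dusp5 and Dusp10 lie under 208 on both arrays, and the other 8 probe sets lie above it on both.

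Dusp1, a nuclear phosphatase that acts on p38 and JNK as well as ERK and is itself an immediate early gene, gave 7465 in control and 6980 in 5ppase at its brightest probe set (1368146_at). The log2 ratio, always taken as 5ppase over control, was -0.097. Its second probe set (1368147_at) gave 2327 and 2423, a log2 ratio of 0.058. The 2 probe sets thus pointed opposite ways, with a gap of 0.16 between their log2 ratios.

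Dusp6, a cytoplasmic phosphatase selective for ERK and widely read as a gauge of ERK activity, was the member with most probe sets. The brightest (1387024_at) gave 4618 in control against 4844 in 5ppase, a log2 ratio of 0.069. The second (1382778_at) gave 1754 and 1834 (0.065). The third (1377064_at) gave 1530 and 1849 (0.27). All 3 were a little higher in 5ppase, by 0.14 ± 0.12 on the log2 scale (SD, n = 3 probe sets of 1 RNA pair, which are not replicate cultures).

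The other 3 phosphatases had low signals. Dusp10, which acts on p38 and JNK rather than ERK, gave 163 in control and 112 in 5ppase. That is a log2 ratio of -0.55, or 1.46-fold lower, from signals above the floor but under the 60th percentile on both arrays. Dusp5, a nuclear phosphatase that binds and inactivates ERK, gave 96.7 and 83.2 (-0.22). Dusp4, another nuclear member, gave 68.4 in control, just over the floor, and 18.5 in 5ppase, under it. No ratio was taken for Dusp4, and those of Dusp5 and Dusp10 were not counted.

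The Sprouty genes went different ways. Spry1, a membrane-associated inhibitor of receptor signalling to Ras, gave 865 in control against 1020 in 5ppase, a log2 ratio of 0.24. Spry2, the relative known to bind the ubiquitin ligase Cbl, gave 606 and 540 (-0.17). Spry4, which can also act on Raf, gave 302 and 464 (0.62) at probe set 1392529_at. Spry1 and Spry4 were thus higher in 5ppase and Spry2 lower, each by a single probe set.

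How far such ratios can differ by the probe set alone was read from the 1883 genes that have a pair of compared probe sets. From the differences within these pairs, the SD of a single log2 ratio came to 0.26. It was 0.17 where the dimmer set exceeded 1000 (470 genes), 0.22 between 500 and 1000 (487 genes) and 0.29 between 208 and 500 (819 genes). These figures cover noise that differs between 2 probe sets of a gene. They leave out what both probe sets share, such as differences between cultures or in the handling of the RNA. A ratio beyond them therefore need not exceed the spread between cultures. The ratio of Dusp1 and those of the first 2 Dusp6 probe sets are smaller than 0.17, whereas that of the third Dusp6 probe set, 0.27, exceeds it. The ratio of Spry2 is smaller than 0.22 and that of Spry1, 0.24, slightly exceeds it. The Spry4 ratio of 0.62 exceeds the 0.29 of its range of signal. Single probe sets this far apart are found for many genes: 4.82% of compared genes were at least as far up as Spry4.

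Of the 5 compared members 1 was at least 1.5-fold higher in 5ppase and 0 were at least 1.5-fold lower. Among all 8261 compared genes 5.25% were that much higher and 5.46% that much lower. No compared member was 2-fold apart, beside 1.5% of all compared genes higher and 1.42% lower by that much. The median log2 ratio of the 5 was 0.069, with 3 positive and 2 negative, and that of all compared genes was -0.017. With Dusp5 and Dusp10 added, which makes 7 members above the floor on both arrays, 3 ratios were positive and 4 negative and the median was -0.097, so the sign of the median depends on the filter.

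**Figure D2:**
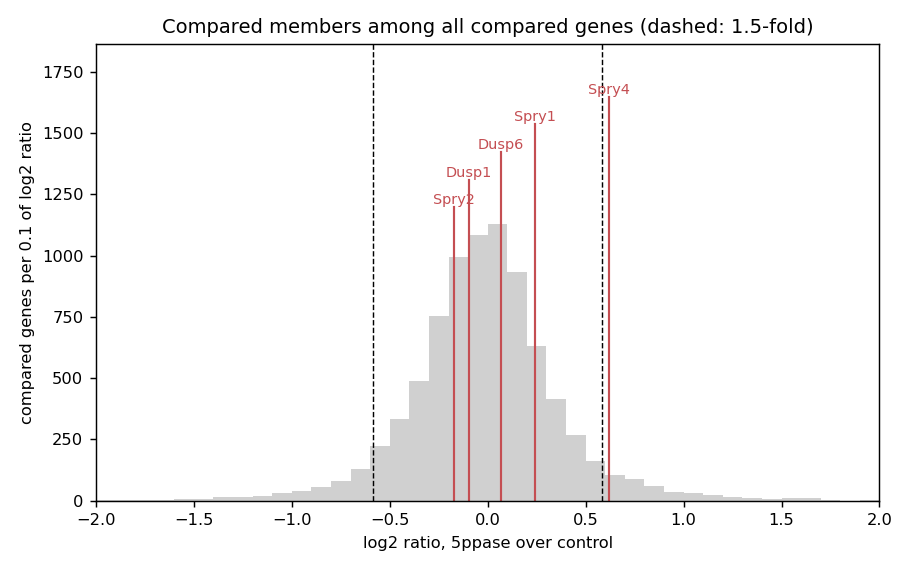
Number of compared genes per 0.1 of log2 ratio, 5ppase over control (grey bars, 8261 genes, of which 16 lie beyond the axis), with red lines at the brightest probe sets of Spry2, Dusp1, Dusp6, Spry1 and Spry4 from left to right. Line heights only separate the names; Spry4, at 0.62, is the only one beyond a dashed 1.5-fold line.

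The direction of each compared member was the same under 4 scalings of the arrays: as deposited, common median, quantile normalization and removal of a loess trend. Dusp1 ranged from -0.16 to -0.097 at its brightest probe set and from 0.028 to 0.061 at its second. Dusp6 ranged from 0.038 to 0.07 at its brightest. Spry1 lay between 0.21 and 0.27, Spry2 between -0.20 and -0.12 and Spry4 between 0.59 and 0.66. Spry4 therefore lay beyond 1.5-fold, a log2 ratio of 0.58, under each of the 4, by a narrow margin with the common median.

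**Figure D3:**
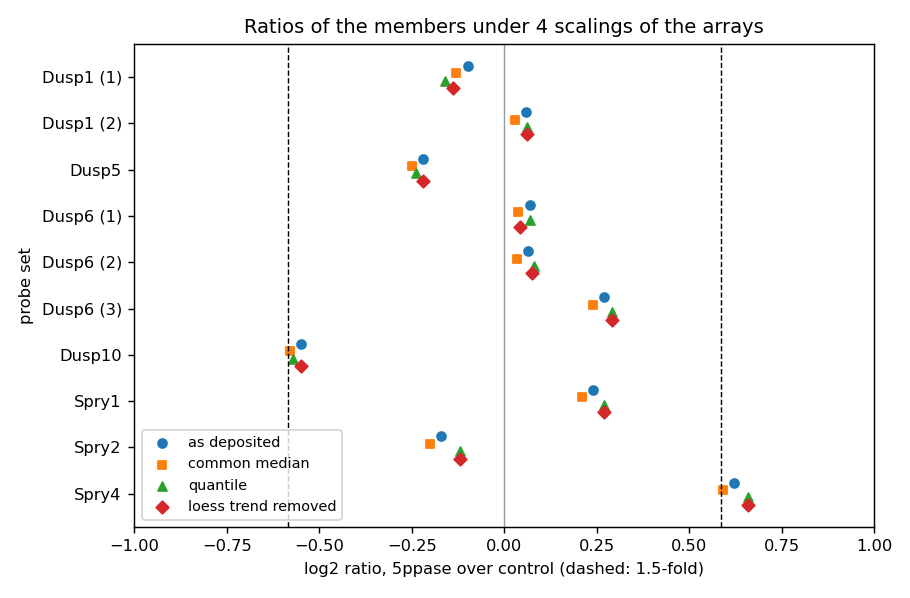
Log2 ratio, 5ppase over control, of the 10 member probe sets above the floor on both arrays under 4 scalings (one symbol each), with 1.5-fold dashed. The scalings move each probe set by less than 0.1; Spry4 stays beyond the upper line, and Dusp10 reaches -0.58 with the common median, short of the lower one.

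The rest of the pathway was read through lists of its genes. Of 13 other dual-specificity phosphatases and Sprouty relatives with values, 8 were compared: 0 were at least 1.5-fold higher and 1 lower, Dusp15, whose signal was 222 in control against 118 in 5ppase (log2 ratio -0.91). Of 15 compared inhibitors of other kinds, 2 were that much higher and 0 lower. These were Lrig3, a membrane protein related to the receptor inhibitor Lrig1, at 311 and 568 (0.87), and the adaptor Sh2b3 at 411 and 689 (0.74). The second probe set of Lrig3 was under the floor on both arrays.

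The relay that these inhibitors act on was read the same way, beside the same shares of 5.25% higher and 5.46% lower among all compared genes. Among receptors and adaptors upstream of Ras 1 of 15 compared genes was at least 1.5-fold lower and 0 higher, the platelet-derived growth factor receptor Pdgfra at 1018 and 644 (log2 ratio -0.66). Among Ras, Raf, MEK and ERK kinases and their partners 1 of 13 was lower and 0 higher, the histone kinase Rps6ka5 at 245 and 151 (-0.70), with -0.24 at its second probe set. Of 23 listed genes of that group 16 were analysed here. Among p38 and JNK kinases and genes that act before, with or after them, 1 of 10 was lower and 0 higher. This was the upstream kinase Map3k1 at 263 and 164 (-0.68, with -0.49 at its second probe set).

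Several immediate early transcripts that ERK can induce had lower signals in 5ppase. Of 28 compared transcripts listed as ERK-responsive, 9 (32.1%) were at least 1.5-fold lower and 0 higher. Among all compared genes 5.46% were that much lower. The median log2 ratio of the 28 was -0.34. The 28 also include Elk1, Elk3, Elk4 and Srf, and whether each of the 28 responds to ERK in these cells was not tested. Fosb, an AP-1 subunit, gave 326 and 118 (-1.46), the orphan receptor Nr4a1 gave 622 and 287 (-1.11) and Fos gave 8260 and 4238 (-0.96), although a dim second probe set of Fos gave 73.4 and 129 (0.82). Ier2 gave 3543 and 2060 (-0.78), Junb 3448 and 2027 (-0.77), Egr2 563 and 341 (-0.72) and the zinc finger factor Egr1 6283 and 4108 (-0.61). Dusp1, in the same class of immediate early genes, stood at -0.097. Within the list of 28 itself, 8 ratios were positive and 20 negative, so Dusp1 was not alone in lying outside the lower group. The list was drawn up with lower values of Fos, Fosb and Nr4a1 already known, so its count is no independent evidence of direction, and the difference between it and the Dusp and Sprouty genes was not tested. Promoters were listed for 7 of the 9 lower genes. A CRE core was held by 5 of these 7 and by 3 of the 8 members with a listed promoter (18.2% of all promoters), and a CArG box by 3 and 1 (1.5%). A full CRE was held by 1 and 1 (1.59%), an EGR match by 1 and 2 (4.29%) and an AP-1 or ETS match by 0 and 0. These counts are of genes with a match at any listed start site, whereas the percentages are of single promoters. The 7 were picked by their low values, and whether they hold any motif more often than other genes was not tested.

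**Figure D4:**
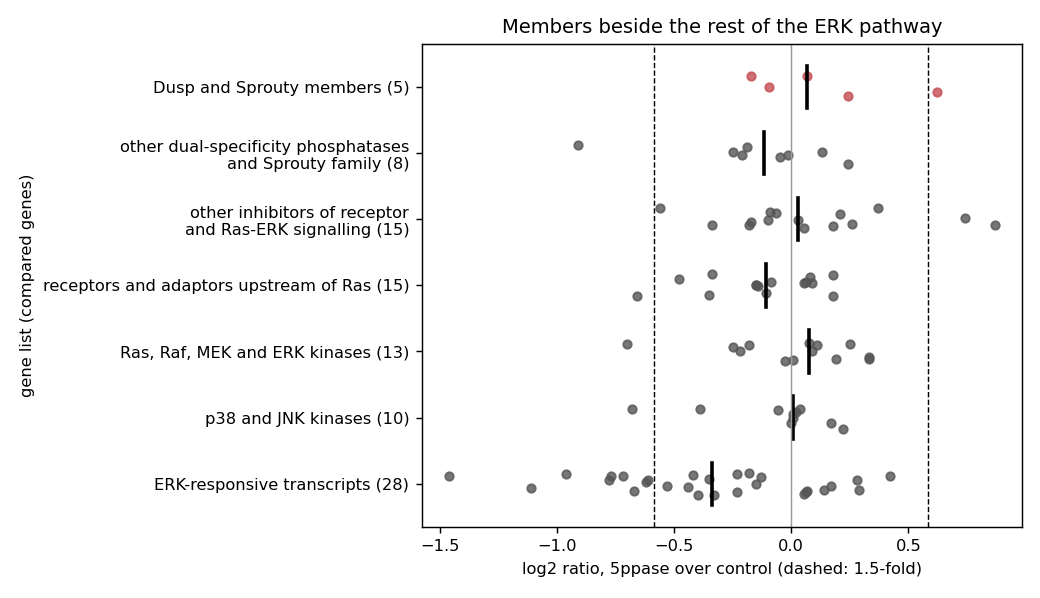
Log2 ratio, 5ppase over control, of every compared gene (points) in 7 lists, with each list's median as a black bar and 1.5-fold dashed; numbers of compared genes are in brackets. The Dusp and Sprouty genes (red, median 0.069) centre near 0 like the kinase lists, and 9 of the 28 transcripts listed as ERK-responsive lie left of the lower line.

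Markers of the cells that such a culture can hold differed between the arrays. Of 15 astrocyte markers with values 3 (Slc1a2, Gjb6 and Ntsr2) lay under the floor on each array. Among the 10 compared, 8 were lower in 5ppase and 2 higher, S100b (3483 and 3611) and Gja1 (7282 and 7656). At least 1.5-fold lower were 7 of the 10, beside 5.46% of all compared genes. Aqp4 gave 432 in control and 25.1 in 5ppase, under the floor, and so was not compared. The 15 markers summed to 57160 in control and 34441 in 5ppase, or 39635 and 27033 without Gfap (17525 and 7408), the marker with the largest difference. The 8 smooth muscle markers summed to 68170 and 99609, with 6 of 7 compared higher. At least 1.5-fold higher were 4 of the 7, beside 5.25% of all compared genes. The 12 fibroblast and meningeal markers summed to 140733 and 129024, with Dcn and Lum under the floor on both arrays. That sum is mostly collagen and fibronectin signal. Of the 10 compared 7 were lower, 4 of them by at least 1.5-fold, with Mgp at 1902 and 199 and Igfbp5 at 2218 and 530. The other 3 were higher, 1 of them by at least 1.5-fold, Thy1 at 3311 and 6032. Among all compared genes 5.46% were that much lower and 5.25% that much higher. For each of the other cell types 1 gene carried most of the difference between the arrays. Neuron markers summed to 6809 and 13276, but to 3043 and 2211 without Stmn2, and 10 of 15 were under the floor on both arrays, Rbfox3, Snap25 and Syt1 among them. Microglial markers summed to 1357 and 2681, and to 279 and 409 without Tmem119, with 8 of 12 under the floor. Oligodendrocyte lineage markers summed to 2894 and 1606, but to 1523 and 1559 without Cldn11 (6 of 10 under the floor). Endothelial and pericyte markers summed to 2596 and 1699, and to 1385 and 1315 without Ocln (8 of 11 under the floor). In such bulk RNA, fewer cells of a type and less RNA per cell cannot be told apart, and the part of these shifts in the Spry4 ratio and in those of the other members was not tested.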

How the data were processed

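RNA of 1 control and 1 5ppase culture was measured, each sample grouped by its title. The deposited values are linear intensities per probe set. Per the submitters' processing notes the authors used MAS5, for which neither version nor settings are given in the sources used here. Of 31099 probe sets 20832 carried 1 gene symbol in the platform annotation, 436 several, and 9831 were not listed there. All 11 member probe sets matched the same symbol by gene identifier in a RefSeq table (GRCr8). No sample column was left unused (0).

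The 2 arrays were brought to 1 trimmed mean (2% removed at each end), signals under the floor of 62.0 were raised to it before log2, which understates ratios of dim genes, and the brightest probe set stood for a gene. This floor is no detection call. The number of arrays limits the precision, and no p-value was computed. The procedure was tested on simulated data.

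The members and lists were chosen with earlier results of these data known. Genes outside the members were named by rule: in each pathway list up to 6 compared genes at least 1.5-fold apart, plus Gfap, Fos and Egr1. Names of markers fall outside it. Since 2 arrays give 1 ratio per gene, no genes of like pattern were named. Alternatives were 4 scalings, a floor at the 25th percentile, a floor at the 60th with at least the 75th on the brighter array, a pseudocount of 6.40 (10th percentile), other choices of probe set and a 2-fold threshold. A count over every member above the floor was added after the data were seen. Python 3.11.15, pandas 2.3.3, numpy 2.4.6 and statsmodels 0.14.6 (loess, span 0.3) were used.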

Additional observations from a re-analysis of the deposited data

How the results depend on the processing

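Of the 5 compared members 1, Spry4, was at least 1.5-fold higher in 5ppase. The count was 0 with a floor at the 60th percentile and the brighter array at the 75th, where 4 members were left and Spry4 was not among them, 0 with the second brightest probe set, which only Dusp1 and Dusp6 have, and 0 with a 2-fold threshold. It was 1 under each of the other alternatives, but several of these could not change it. The deposited values already share 1 trimmed mean, so that setting repeats the main one. Spry4 has a single probe set, which the other choices of probe set leave in place, and its signals exceed the lower floor. The count of members at least 1.5-fold lower was 0 throughout, except with a pseudocount and neither floor nor filter, where it was 1: Dusp4, a dim gene, at a log2 ratio of -1.59. The median ratio lay between -0.13 (pseudocount, 8 members) and 0.14 (mean of all probe sets), beside 0.069, and its sign changed with the members that the filter kept. No paired analysis was possible because each group has 1 array, and no replicate could be left out. Low signal limits what can be read for Dusp4, Dusp5 and Dusp10.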

Other observations

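Probe sets of 1 gene disagreed for some other phosphatases and for Spred3, genes singled out after their values were seen. Dusp18 has 4 probe sets. The brightest gave 412 in control against 408 in 5ppase (log2 ratio -0.015), the second 507 and 262 (-0.95), the third 147 and 205 (0.48), and the fourth was under the floor on both arrays. Dusp3, a small phosphatase that can act on ERK and JNK, gave 1831 and 1609 at its brightest probe set (-0.19) and 632 and 814 at the second (0.36). Spred3, the only Spred gene with values here, gave 213 and 206 (-0.047) and, at a dimmer probe set, 76.5 and 124 (0.70). Where on each message these probe sets lie is not known here. Dusp2, an inducible nuclear phosphatase, gave 1.5 in control and 64.4 in 5ppase, just over the floor of 62.0, so no ratio was taken.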
